A study of Mus musculus with 5 samples.

Results

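The 10 genes described here are the epidermal growth factor (EGF) family ligands Nrg1, Nrg2, Nrg3, Nrg4, Btc and Hbegf and their 4 receptors Egfr, Erbb2, Erbb3 and Erbb4. They were chosen by symbol, and all 10 were found among the 32285 genes of each of 2 single-nuclei RNA sequencing matrices of mouse interscapular brown adipose tissue (iBAT), with at least 1 unique molecular identifier (UMI) in both. The question was which cell type of the tissue carried the mRNA of each ligand and which carried that of each receptor.

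Ligands of this family are mostly made as membrane-anchored precursors and released by proteases, after which they bind a receptor tyrosine kinase on the same or on a neighbouring cell. The receptors signal as dimers. Erbb2 has no known ligand of its own and Erbb3 has little kinase activity, so both work mainly through partners, whereas Egfr and Erbb4 bind ligands and signal by themselves. Nrg4 is known as a ligand of Erbb4 that brown adipocytes secrete, Nrg1 acts through Erbb3 and Erbb2 in Schwann cells, and Egfr marks many fibroblasts and adipocyte progenitors.

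Nuclei were sorted from iBAT of male mice and profiled by droplet-based 3′ sequencing. One matrix holds 2 libraries from 3-month-old mice. One of these was Ucp1-STX4KO, in which Cre driven by the Ucp1 promoter (1 copy, Ucp1-Cre+/-) deletes a floxed Syntaxin 4 gene (STX4 fl/fl) in cells that use that promoter, leaving the gene in the other cells of the tissue. The WT library came from controls, and the study describes its control mice as littermates carrying either the Cre or the floxed alleles. The second matrix holds 3 libraries from C57BL/6J mice of 2, 12 and 24 months (young adult, middle age and old), with no other genetic or drug treatment given in the labels. Per the methods the nuclei were prepared from iBAT of 4 male mice, and it is not stated whether that number holds for each library or whether animals were pooled. Libraries are told apart by the numeric ending of the barcodes, called the suffix here, and since no label links a suffix to a genotype or an age, values by suffix describe libraries and neither genotypes nor ages were compared. There is 1 library per condition, so no p-values were computed.

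The first matrix holds 20307 nuclei, with median depths of 5998 UMIs for suffix 1 and 3284.5 UMIs for suffix 2. Of the aging matrix 27842 nuclei passed the lower limits of 200 UMIs and 100 genes, and the medians were 891, 1635 and 1719.5 UMIs for suffixes 1, 2 and 3. Between 23 and 45 barcodes were shared by any pair of libraries of a matrix. Each nucleus was assigned to the cell type whose list of marker genes stood highest over the rest of its library. This gave 13550 gated nuclei in the WT and KO matrix, where 9 types reached 50 nuclei, and 22673 in the aging matrix, where 7 did. The labels call the nuclei brown adipocytes. Adipocyte-like nuclei were 47.5% of the first matrix but only 6.71% of the aging matrix, in which 55.3% were endothelial-like. The adipocyte gate was the largest of the first matrix with 9651 nuclei, and all 10 of its markers were detected, but none of them was among its 10 leading genes, which included Pnpla3, Ctcfl and Adora1. The other types are likewise called by their marker lists, and each is "-like" in that sense. Levels are given as CPM, the UMIs of a gene over all UMIs of the type on the usual scale, with exact Poisson intervals. Shares of nuclei have exact Clopper-Pearson intervals and ratios have exact conditional binomial intervals, all at 95% and all covering counting error only. Levels are compared between types within a gene. Where genes are set side by side, the values are plain counts or CPM, not scaled to gene length, and are descriptions only. In sums over a type, fewer nuclei of a subtype and less RNA per nucleus cannot be told apart.

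The 250 bases upstream of the RefSeq start on GRCm38.p6 are shown for Nrg4, Erbb4 and Btc, whose summed UMIs lay mostly in adipocyte nuclei of the WT and KO matrix, and for Egfr, the receptor of the stromal nuclei, as a contrast. They are written 5′ to 3′ on the strand of the gene. Capitals mark the nuclear receptor half-site AGGTCA or its reverse complement TGACCT.
Nrg4, chr9:55283626-55283875, minus strand: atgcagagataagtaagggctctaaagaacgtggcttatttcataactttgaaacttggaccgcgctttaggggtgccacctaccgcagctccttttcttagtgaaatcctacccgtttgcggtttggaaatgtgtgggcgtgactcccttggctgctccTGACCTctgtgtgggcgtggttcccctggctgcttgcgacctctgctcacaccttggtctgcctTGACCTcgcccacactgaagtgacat
Erbb4, chr1:69108060-69108309, minus strand: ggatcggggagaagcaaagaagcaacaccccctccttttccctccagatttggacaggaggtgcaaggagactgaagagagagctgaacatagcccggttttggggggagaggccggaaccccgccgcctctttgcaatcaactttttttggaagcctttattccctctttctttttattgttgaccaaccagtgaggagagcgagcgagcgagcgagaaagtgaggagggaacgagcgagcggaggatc
Btc, chr5:91402995-91403244, minus strand: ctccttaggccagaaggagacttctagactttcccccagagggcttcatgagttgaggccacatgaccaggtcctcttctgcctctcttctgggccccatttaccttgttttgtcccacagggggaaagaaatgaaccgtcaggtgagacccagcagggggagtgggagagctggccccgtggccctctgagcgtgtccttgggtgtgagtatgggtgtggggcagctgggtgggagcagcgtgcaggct
Egfr, chr11:16751953-16752202, plus strand: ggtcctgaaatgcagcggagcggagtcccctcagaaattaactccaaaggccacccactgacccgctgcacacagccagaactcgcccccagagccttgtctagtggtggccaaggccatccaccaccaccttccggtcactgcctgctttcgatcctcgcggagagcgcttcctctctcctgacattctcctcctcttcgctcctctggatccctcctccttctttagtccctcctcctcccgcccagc
The half-site is the core to which PPAR and related receptors bind. The Nrg4 window held 2 matches, both on the reverse strand, beginning 90 and 26 bases before the start, and the other 3 windows held 0. Of 32851 promoter windows of that length, belonging to 27025 genes, 14.0% held at least 1 match on either strand. The core CCCNNGGG of early B-cell factor sites, which also reads the same on both strands, was in none of the 4 windows and in 11.8% of all. The Nrg4 window lies inside the annotated span of Nrg4 and overlaps none of its exons, whereas the other 3 lie just outside their genes. A match describes letters in a window and no binding was measured.

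On GRCm38 the members lie on 8 chromosomes. Nrg4, the ligand with the highest count in adipocyte nuclei, lies on the minus strand at chr9:55220222-55326844, and its receptor Erbb4 spans chr1:68032186-69108059, also on the minus strand. Btc lies at chr5:91357261-91402994 and Hbegf at chr18:36504927-36515805, both minus. The remaining neuregulins are Nrg1 at chr8:31814551-32884029, Nrg2 at chr18:36017652-36197380 and Nrg3 at chr14:38368952-39473088, all minus. Egfr lies at chr11:16752203-16918158 and Erbb2 at chr11:98412470-98437716, both on the plus strand, and Erbb3 lies at chr10:128567523-128589652 on the minus strand. Gene spans ran from 10.879 kb for Hbegf to 1104.14 kb for Nrg3, and whether reads in introns were counted was not stated. Nrg4 and Erbb2 overlap the opposite-strand genes Fbxo22 and Mien1 at their ends. Nrg2, Nrg3 and Egfr each hold at least 1 opposite-strand transcript that is counted separately, and Erbb4 holds the same-strand transcript Gm16076, with which reads could be shared. Whether counting used strand was not stated.

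Among the ligands, Nrg4 was the adipocyte member in both matrices. In the WT and KO matrix it gave 138770 UMIs in adipocyte nuclei, a level of 1938 CPM, and 9564 of 9651 adipocyte nuclei (99.1%) had at least 1 UMI. By suffix, the adipocyte level was 1643 CPM in suffix 1 (80113 UMIs) and 2568 CPM in suffix 2 (58657 UMIs). All 8 other types lay lower, between 387 CPM in macrophage and 979 CPM in endothelial nuclei, and 95.3% of the Nrg4 UMIs of gated nuclei were in adipocyte nuclei. The ratio of adipocyte to endothelial, the next type, was 1.98 (1.88 to 2.09).

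The aging matrix put Nrg4 at 1227 CPM in adipocyte nuclei, with 6337 UMIs in 1552 of 1868 nuclei (83.1%). The 3 libraries gave 1331, 1239 and 949 CPM for suffixes 1, 2 and 3. Every other type of that matrix was at or below 86.2 CPM, the level of Schwann nuclei, which makes the ratio to the next type 14.2 (12.5 to 16.2). Stromal nuclei of suffix 1 had 0 Nrg4 UMIs of 610555, which allows a level of up to 4.91 CPM. Leaving out the most deeply sequenced 8% of nuclei raised the ratio of adipocyte to Schwann to 131, so that the deepest nuclei carried most of the Schwann level.

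Thinning each nucleus to 1000 UMIs removed depth from the shares of nuclei with an Nrg4 UMI. The adipocyte shares were then 77.3% and 84.9% for suffixes 1 and 2 of the WT and KO matrix and 69.1%, 59.7% and 54.4% for suffixes 1, 2 and 3 of the aging matrix. Endothelial nuclei gave 51.3% and 48.3% in the first matrix but 3.65%, 5.42% and 2.05% in the second. Thus the 2 matrices were closest in adipocyte nuclei and far apart in endothelial nuclei. Unthinned, the endothelial share was 63.2% in the first matrix and 5.38% in the second, at median depths of 1506 and 1601 UMIs against 6616 and 2320 UMIs in adipocyte nuclei.

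**Figure D1:**
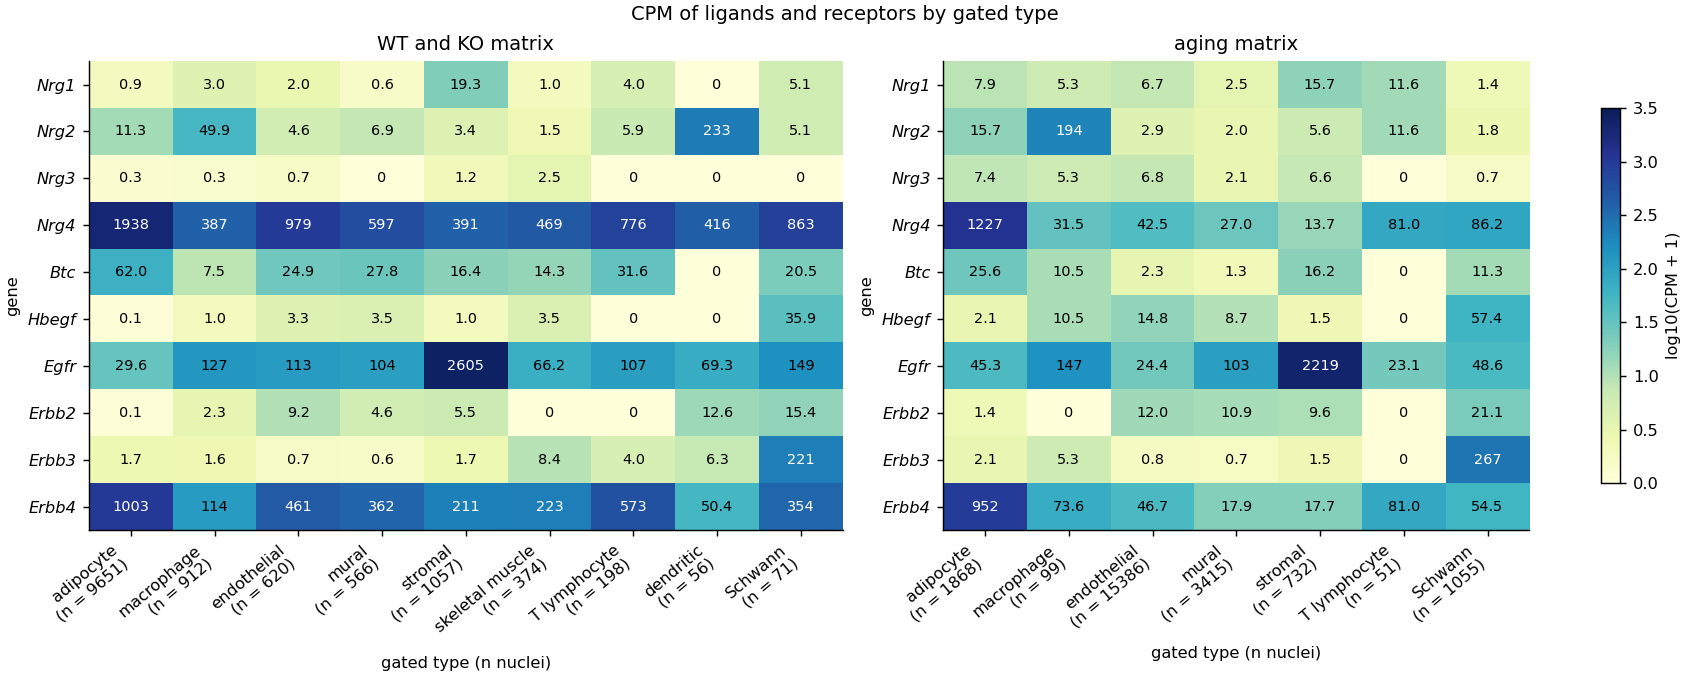
Heat map of the level of each of the 10 genes (CPM, log scale) in every cell type with at least 50 nuclei. The WT and KO matrix and the aging matrix are shown, with the CPM printed in each cell. Nrg4 and Erbb4 are highest in adipocyte and Egfr in stromal nuclei of both matrices, while the remaining 7 genes stay at or below 267 CPM in all types.

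The adipocyte markers themselves were present in the other types of the WT and KO matrix. Their summed level was 10121 CPM in adipocyte nuclei and 1746 to 4461 CPM in the other 8 types, with 10 of 10 markers detected in each. The sum in the aging matrix was 7654 CPM in adipocyte nuclei and 416 to 1053 CPM elsewhere, with 9 or 10 of 10 detected. The markers at 0 in the second matrix were Plin5 in macrophage and Slc7a10 in T lymphocyte nuclei, and none was at 0 in any type of the first.

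Ucp1, the uncoupling protein that brown adipocytes use to make heat, gives a reference for a gene of adipocytes measured in other types. In 12 of 12 combinations of a non-adipocyte type and a library in each matrix, the Nrg4 level as a share of the adipocyte level was at or below that of Ucp1. These ratios for Nrg4 ran from 0.124 to 0.644 (median 0.262) in the WT and KO matrix, against 0.262 to 0.804 (median 0.464) for Ucp1. Those of the aging matrix ran from 0 to 0.0770 for Nrg4 and from 0.00160 to 0.181 for Ucp1. Against the summed adipocyte marker list, which stood at 0.142 to 0.585 of its adipocyte level in the first matrix and 0.0288 to 0.130 in the second, Nrg4 was at or below the share of the list at 6 of 12 points and at 12 of 12. The 6 points above it were macrophage, endothelial and mural nuclei of suffix 1 and endothelial, Schwann and dendritic nuclei of suffix 2, with endothelial nuclei at 0.644 against 0.585 and 0.360 against 0.330. Ucp1 itself was above the list at 12 of 12 points of the first matrix. The part of adipocyte RNA in the Nrg4 level of other types was not tested.

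**Figure D2:**
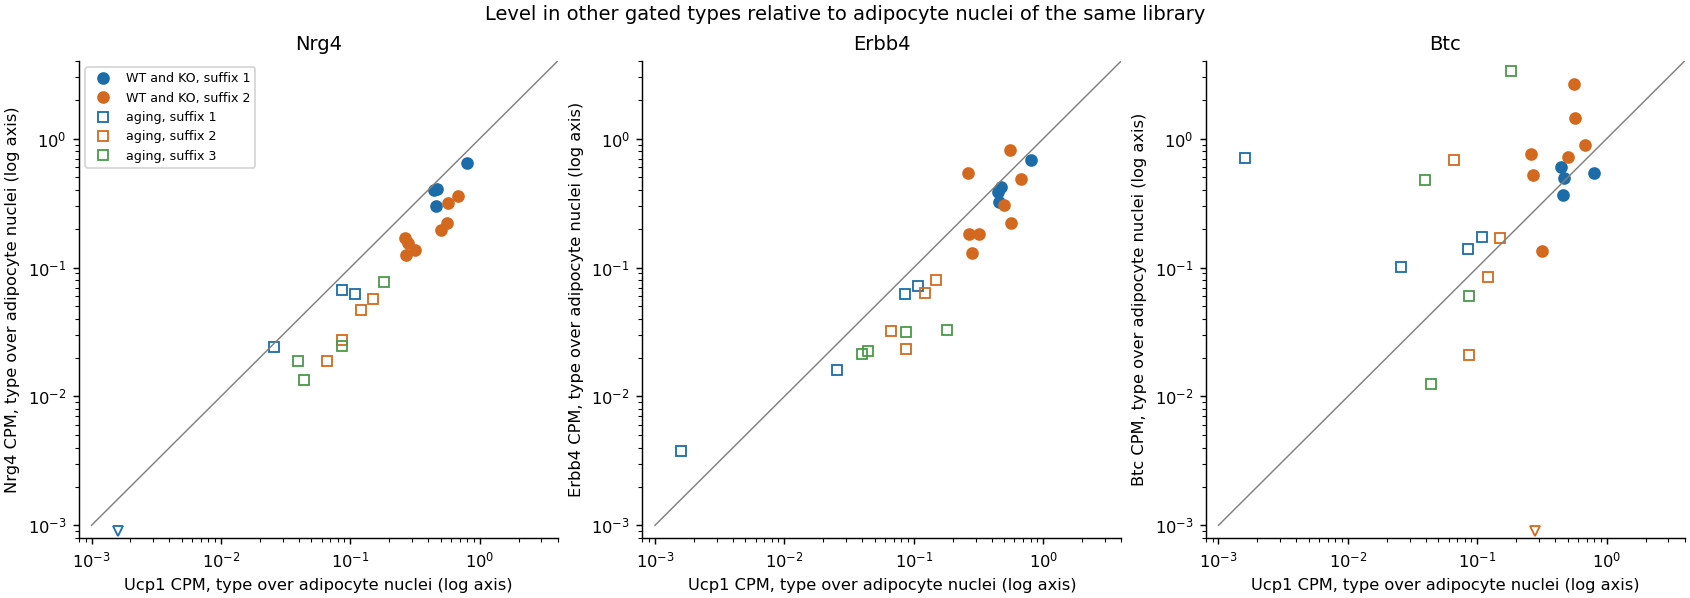
Level of Nrg4, Erbb4 and Btc in each non-adipocyte type and library as a share of the level in adipocyte nuclei of the same library (y axis, log scale), against the same share for Ucp1 (x axis, log scale). The line marks equal shares, hollow triangles at the lower edge stand for 0, and all Nrg4 points lie on or under the line in both matrices.

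Btc (betacellulin), a ligand of Egfr and Erbb4, was also highest in adipocyte nuclei in the pooled counts, but by less. It gave 4443 UMIs and 62.0 CPM in adipocyte nuclei of the WT and KO matrix, in 24.7% of nuclei, against 31.6 CPM (16 UMIs) in T lymphocyte, 27.8 CPM in mural and 24.9 CPM in endothelial nuclei. The ratio to the next type was 1.96 (1.21 to 3.44). The 2 libraries differed, with 85.9 CPM (4190 UMIs) in adipocyte nuclei of suffix 1 and 11.1 CPM (253 UMIs) in those of suffix 2. In suffix 2 alone the adipocyte level was below that of T lymphocyte nuclei, 29.6 CPM on 9 UMIs, and its interval of 9.75 to 12.5 CPM overlapped those of endothelial, mural, skeletal muscle and Schwann nuclei. So the adipocyte lead of Btc in that matrix rested on suffix 1.

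Btc of the aging matrix gave 132 UMIs and 25.6 CPM in adipocyte nuclei, with 20.8, 28.0 and 32.9 CPM by suffix. Stromal nuclei came next at 16.2 CPM (14.7, 19.2 and 15.6 CPM by suffix), a ratio of 1.58 (1.07 to 2.40), and within each library the intervals of those 2 types overlapped. Endothelial and mural nuclei were low at 2.30 and 1.31 CPM. Schwann nuclei gave 2.90 and 4.73 CPM in suffixes 1 and 2 and 110 CPM in suffix 3, where 24 UMIs fell in 9 of 70 nuclei. As much as 10 of those UMIs were in 1 nucleus. Relative to Ucp1, Btc was at or below the Ucp1 share at 4 of 12 points in each matrix.

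Hbegf (heparin-binding EGF-like growth factor), a ligand of Egfr and Erbb4, was highest by level in Schwann nuclei. Endothelial nuclei of the aging matrix, 15386 in number, held more of its UMIs, 418 of 670. The 1055 Schwann nuclei of that matrix held 163 UMIs in 138 nuclei (13.1%), a level of 57.4 CPM. By suffix they gave 56.8, 66.2 and 54.8 CPM, on 137, 14 and 12 UMIs. Endothelial nuclei were next at 14.8 CPM (16.0, 11.2 and 16.9 CPM by suffix), a ratio of 3.88 (3.22 to 4.66), and the Schwann and endothelial intervals did not overlap in any of the 3 libraries. Mural nuclei gave 8.72 CPM, and adipocyte and stromal nuclei were at 2.13 and 1.52 CPM on 11 and 3 UMIs.

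The WT and KO matrix held 41 Hbegf UMIs in gated nuclei, too few for the rule on concentration, which asked for 50. Of these, 7 were in Schwann nuclei, giving 35.9 CPM (14.5 to 74.1), and no other type exceeded 3.47 CPM. Adipocyte nuclei had 9 UMIs among 71610696, a level of 0.126 CPM. The order of types was thus alike at the top in both matrices.

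Within endothelial and mural nuclei of the aging matrix, Hbegf differed along marker lists for vessel types. Nuclei of the venous list gave 47.4, 30.6 and 35.3 CPM by suffix and those of the capillary list 5.72, 12.5 and 7.95 CPM. Those of the smooth muscle list gave 18.4, 16.7 and 33.7 CPM and those of the pericyte list 3.13, 3.88 and 3.12 CPM. In each of the 3 libraries the venous and smooth muscle values were the higher of their pair. The venous values lay below the Schwann values of the same libraries, 56.8, 66.2 and 54.8 CPM, but closer to them than those of all endothelial nuclei. The venous and capillary intervals were apart in suffixes 1 and 3 but overlapped in suffix 2, and the smooth muscle and pericyte intervals overlapped in suffix 2 alone.

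Nrg2, a ligand of Erbb3 and Erbb4, was highest in myeloid types. Dendritic nuclei of the WT and KO matrix gave 37 UMIs in 20 of 56 nuclei, a level of 233 CPM, and macrophage nuclei 152 UMIs in 79 of 912, a level of 49.9 CPM. The ratio of the 2 was 4.68 (3.17 to 6.74). Dendritic nuclei of suffix 1 were under 50 in number, so the order was seen in suffix 2 alone, with 211 against 34.3 CPM. Macrophage nuclei of suffix 1 had 164 CPM, with a UMI in 30 of 91 nuclei. Macrophage nuclei of the aging matrix gave 37 UMIs in 20 of 99 nuclei and 194 CPM, a ratio of 12.4 (8.16 to 18.5) to adipocyte nuclei. Nrg2 was thus detected in macrophage nuclei of both matrices.

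Adipocyte nuclei carried Nrg2 at a low level, 11.3 CPM on 807 UMIs in the first matrix (14.5 and 4.29 CPM by suffix) and 15.7 CPM on 81 UMIs in the aging matrix (7.08, 29.1 and 12.3 CPM). They held more Nrg2 UMIs than any other type of the first matrix, over 9651 nuclei. Macrophage nuclei numbered 25, 43 and 31 in the 3 aging libraries, too few to be compared library by library.

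Nrg1, the neuregulin best known from nerve and heart, was sparse. Stromal nuclei of the WT and KO matrix gave 80 UMIs (19.3 CPM), but these lay in 21 of 1057 nuclei, 35 of them in 1 nucleus. By suffix the stromal level was 1.75 CPM on 3 UMIs and 31.6 CPM on 77 UMIs in 19 nuclei. Adipocyte nuclei were at 0.880 CPM, and 23 of their 63 UMIs were in 1 nucleus. The next type by level, Schwann, had 1 UMI, so the ratio of 3.75 had an interval of 0.654 to 150. The stromal level in the aging matrix was 15.7 CPM on 31 UMIs in 23 nuclei, and the next type, T lymphocyte, was at 11.6 CPM on 1 UMI, so the ratio of 1.36 had an interval of 0.226 to 55.2. Adipocyte and endothelial nuclei gave 7.94 and 6.75 CPM on 41 and 191 UMIs. Mural and Schwann nuclei were lower, at 2.51 and 1.41 CPM. No more than 8.19 CPM was seen in any gated type of suffix 1 there.

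Nrg3, a neural ligand of Erbb4, was near the limit of detection in the WT and KO matrix, with 30 UMIs in gated nuclei. Of these, 18 were in 18 adipocyte nuclei, and all 5 of skeletal muscle were in 1 nucleus. The aging matrix gave 7.36 CPM in adipocyte, 6.78 in endothelial and 6.58 in stromal nuclei, whose intervals overlapped. Nrg3 was nearly absent from suffix 1 there, with 0 UMIs in adipocyte, stromal and mural nuclei, which allows up to 1.25 CPM in the adipocyte nuclei. In suffixes 2 and 3 the adipocyte nuclei gave 10.6 and 19.5 CPM and the endothelial nuclei 8.53 and 6.78 CPM.

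Among the receptors, Erbb4 had its highest level in adipocyte nuclei, the same type as Nrg4. In the WT and KO matrix it gave 71857 UMIs and 1003 CPM there, in 81.1% of nuclei. The libraries were far apart, with 1321 CPM (64416 UMIs, 97.7% of nuclei) in suffix 1 and 326 CPM (7441 UMIs, 50.2% of nuclei) in suffix 2. T lymphocyte nuclei followed at 573 CPM and endothelial nuclei at 461 CPM, and the lowest level was 50.4 CPM in dendritic nuclei. The pooled ratio to the next type was 1.75 (1.56 to 1.97), but the 2 types differed in library mix. Suffix 1, with the higher Erbb4 level, held 6278 of 9651 adipocyte nuclei but 29 of 198 T lymphocyte nuclei. The pooled ratio is therefore not a lead within a library. In suffix 2 alone the ratio was 1.22 (0.981 to 1.54), so adipocyte and T lymphocyte nuclei were not parted there. T lymphocyte nuclei of suffix 1 were too few to be compared. The next type compared there was endothelial at 897 CPM, a ratio of 1.47.

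The aging matrix gave Erbb4 at 952 CPM in adipocyte nuclei, on 4914 UMIs in 74.0% of nuclei, with 866, 1127 and 842 CPM by suffix. No other type exceeded 81.0 CPM, which was the T lymphocyte level on 7 UMIs, and the ratio was 11.8 (5.70 to 29.2). Endothelial nuclei gave 46.7 CPM and mural and stromal nuclei 17.9 and 17.7 CPM. In thinned nuclei 52.5%, 58.5% and 45.4% of adipocyte nuclei had an Erbb4 UMI in suffixes 1, 2 and 3, against 2.44%, 6.21% and 2.23% of endothelial nuclei. The corresponding adipocyte shares in the WT and KO matrix were 67.9% and 22.9%, and the endothelial ones 31.1% and 11.1%.

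Measured against Ucp1, Erbb4 in other types was at or below the Ucp1 share at 10 of 12 points in the WT and KO matrix and 11 of 12 in the aging matrix. Both exceptions of the first matrix were in suffix 2. T lymphocyte nuclei stood at 0.819 of the adipocyte level, with Ucp1 at 0.555, and skeletal muscle nuclei at 0.543, with Ucp1 at 0.262. The exception of the aging matrix was stromal nuclei of suffix 1, at 0.00378 on 2 UMIs, with Ucp1 at 0.00160. The T lymphocyte value of the first matrix rested on 81 UMIs in 33 of 169 nuclei. Against the marker list, Erbb4 was at or below the share of the list at 2 of 12 points in the first matrix and 12 of 12 in the second. Whether these levels belong to those types was not tested.

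Within the adipocyte gate, Nrg4 and Erbb4 were found in the same nuclei about as often as their separate shares would give. After thinning, 50.9% of adipocyte nuclei of suffix 1 of the WT and KO matrix held both, and the product of the shares with Nrg4 and with Erbb4 was 51.5%. In suffix 2 the values were 19.0% and 18.8%. The aging libraries gave 37.7% against 35.1%, 38.0% against 36.9% and 23.8% against 24.1% for suffixes 1, 2 and 3. Ligand and receptor mRNA thus occurred together in single adipocyte nuclei of all 5 libraries, with no large excess or shortage of such nuclei. Nuclei with both were also found in other types, above or below the product of the shares depending on type and library.

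**Figure D3:**
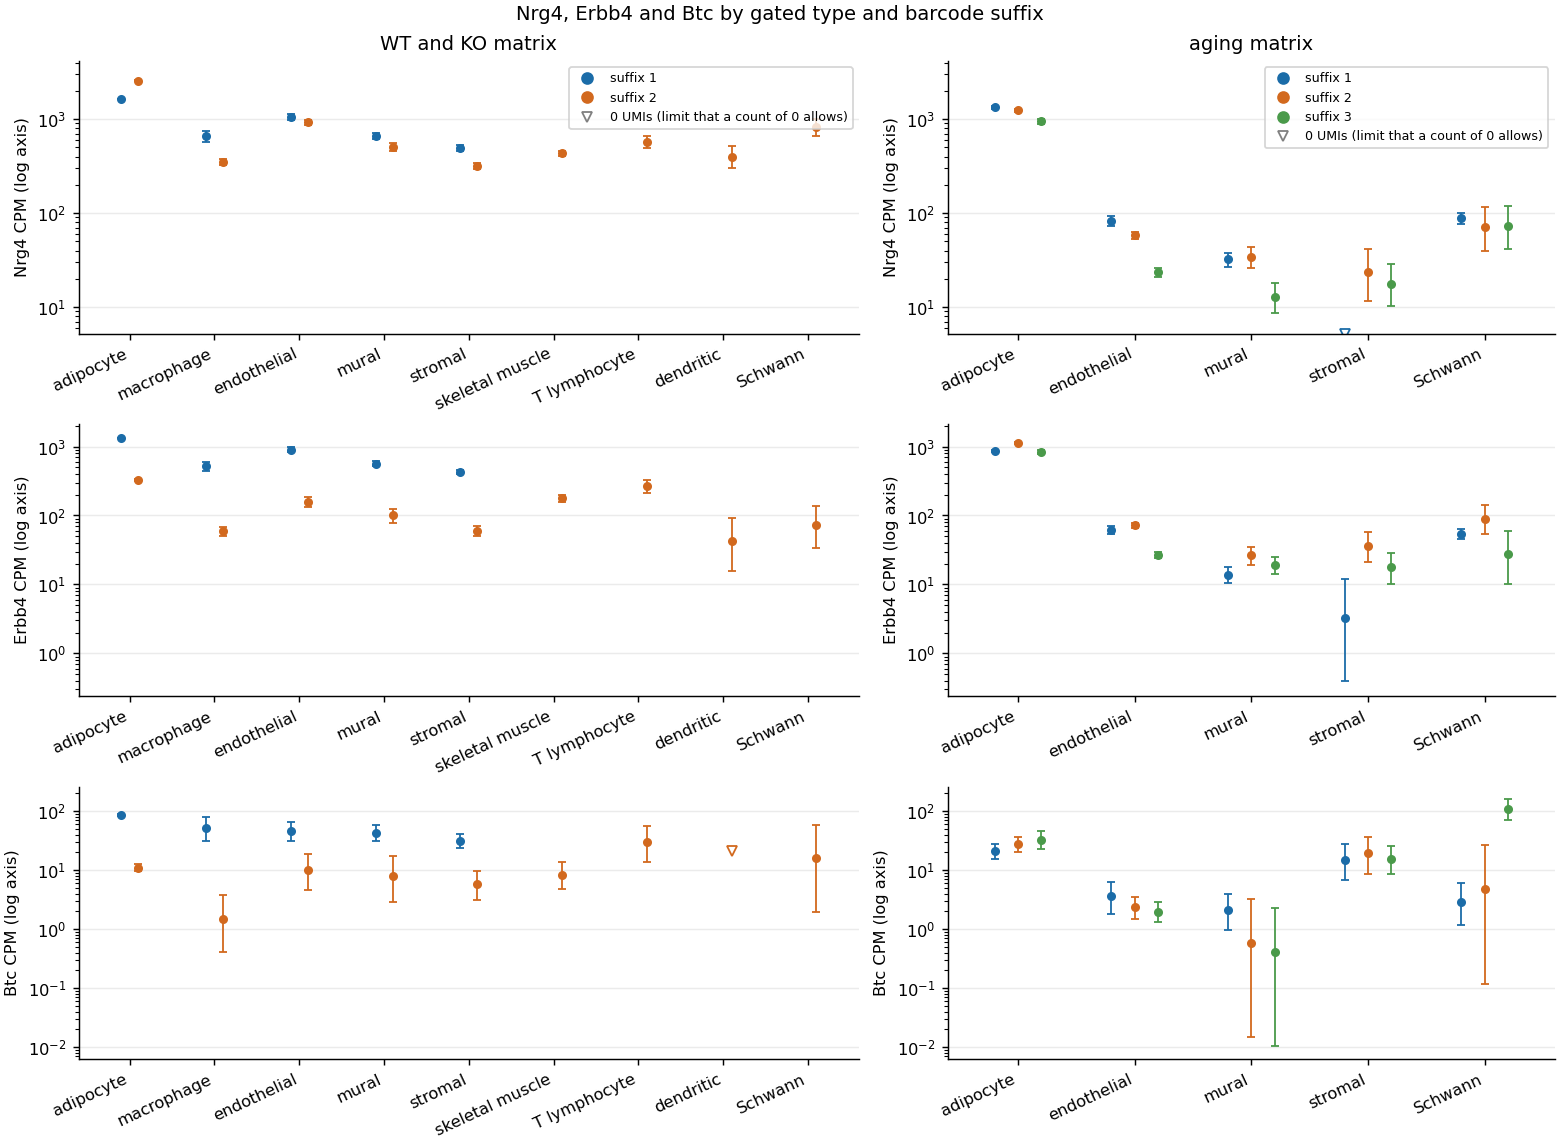
Levels (CPM, log scale) of Nrg4, Erbb4 and Btc in each cell type and library, one point per suffix with its 95% Poisson interval. Adipocyte nuclei hold the top Nrg4 value in all 5 libraries, while Btc in suffix 2 of the WT and KO matrix is at 11.1 CPM, under the T lymphocyte value.

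Egfr, the EGF receptor, was the stromal member of the family. A total of 10826 UMIs of the WT and KO matrix fell in 996 of 1057 stromal nuclei (94.2%), a level of 2605 CPM, with 1854 CPM in suffix 1 and 3134 CPM in suffix 2. The other 8 types lay between 29.6 CPM in adipocyte and 149 CPM in Schwann nuclei, and the ratio to the next type was 17.5 (12.2 to 26.1). Stromal nuclei of the aging matrix gave 2219 CPM, on 4386 UMIs in 661 of 732 nuclei (90.3%), with 2779, 1329 and 2301 CPM by suffix. Stromal nuclei were therefore above every other type in each of the 5 libraries. Macrophage nuclei of the aging matrix were next at 147 CPM on 28 UMIs, a ratio of 15.1 (10.4 to 22.7), and mural nuclei gave 103 CPM (121, 49.4 and 107 CPM by suffix).

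After thinning, 78.1% and 79.2% of stromal nuclei held an Egfr UMI in the WT and KO matrix and 82.5%, 61.3% and 77.1% in the aging matrix. The endothelial shares were 2.52% and 13.8%, and 1.95%, 0.697% and 2.57%. Stromal nuclei that matched a list for Dpp4 and Pi16 progenitors, 20 in suffix 1 and 25 in suffix 2 of the first matrix, gave 1309 and 2762 CPM. The remaining stromal nuclei gave 1887 and 3145 CPM, so Egfr was not higher in the progenitor list in either library.

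Adipocyte nuclei held Egfr at 5.93 CPM (289 UMIs, 3.07% of nuclei) in suffix 1 and at 80.2 CPM (1832 UMIs, 27.0% of nuclei) in suffix 2 of the WT and KO matrix. The summed stromal marker list, measured in the same nuclei, was higher in suffix 2 as well. As a share of the stromal level, Egfr in adipocyte nuclei was 0.00320 in suffix 1 and 0.0256 in suffix 2, and the stromal list 0.00480 and 0.0210. In the aging matrix the shares were 0.0258, 0.00968 and 0.0174 for Egfr and 0.0175, 0.0391 and 0.0225 for the list. There they did not move together, Egfr being lowest and the list highest in suffix 2. The part of the stromal markers in the adipocyte value of Egfr was not tested.

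Erbb3, the receptor through which Schwann cells receive neuregulin, was highest in Schwann nuclei in both matrices. The WT and KO matrix gave 43 UMIs in 29 of 71 Schwann nuclei, a level of 221 CPM, and 31 of these UMIs were in suffix 2 (250 CPM). Skeletal muscle nuclei were next at 8.40 CPM, with 17 UMIs in 16 of 374 nuclei, and the ratio was 26.3 (14.7 to 49.2). Schwann nuclei of the aging matrix gave 267 CPM, on 758 UMIs in 488 of 1055 nuclei (46.3%), with 281, 255 and 119 CPM by suffix. No other type reached more than 5.25 CPM, and that value was 1 UMI in macrophage nuclei. The ratio of 50.8 accordingly had a wide interval of 9.08 to 2007.

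Most Schwann nuclei of the aging matrix matched a non-myelinating list. Its genes Scn7a and Cadm2 are also markers of the Schwann gate, so a match was partly set by the gate. The matching nuclei gave Erbb3 levels of 288, 262 and 125 CPM by suffix. Suffix 3 thus had the lowest level with or without the split, on 26 UMIs in 22 of 70 nuclei. Adipocyte nuclei of suffix 1 of the WT and KO matrix had 116 Erbb3 UMIs in 110 of 6278 nuclei, a level of 2.38 CPM, and those of suffix 2 had 6 UMIs, a level of 0.263 CPM.

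Erbb2, the shared partner of the other receptors, was low and spread over types. In the aging matrix Schwann nuclei gave 21.1 CPM on 60 UMIs and endothelial nuclei 12.0 CPM on 340 UMIs, a ratio of 1.76 (1.31 to 2.32). In suffix 2 that ratio was 1.03 (0.210 to 3.08), so the 2 types were not parted there. Mural and stromal nuclei followed at 10.9 and 9.61 CPM. Adipocyte nuclei were lower, at 1.36 CPM (0.545 to 2.79) on 7 UMIs.

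In the WT and KO matrix the adipocyte nuclei held 5 Erbb2 UMIs of 71610696, a level of 0.0698 CPM (0.0227 to 0.163). The highest levels were 15.4 CPM in Schwann and 12.6 CPM in dendritic nuclei, but on 3 and 2 UMIs, and their ratio of 1.22 had an interval of 0.140 to 14.6. Endothelial nuclei gave 9.16 CPM on 14 UMIs, stromal nuclei 5.53 CPM on 23 and macrophage nuclei 2.30 CPM on 7. Skeletal muscle and T lymphocyte nuclei had 0 Erbb2 UMIs. Adipocyte nuclei had the lowest Erbb2 level among types with any UMI in both matrices, although Erbb4 was highest there.

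**Figure D4:**
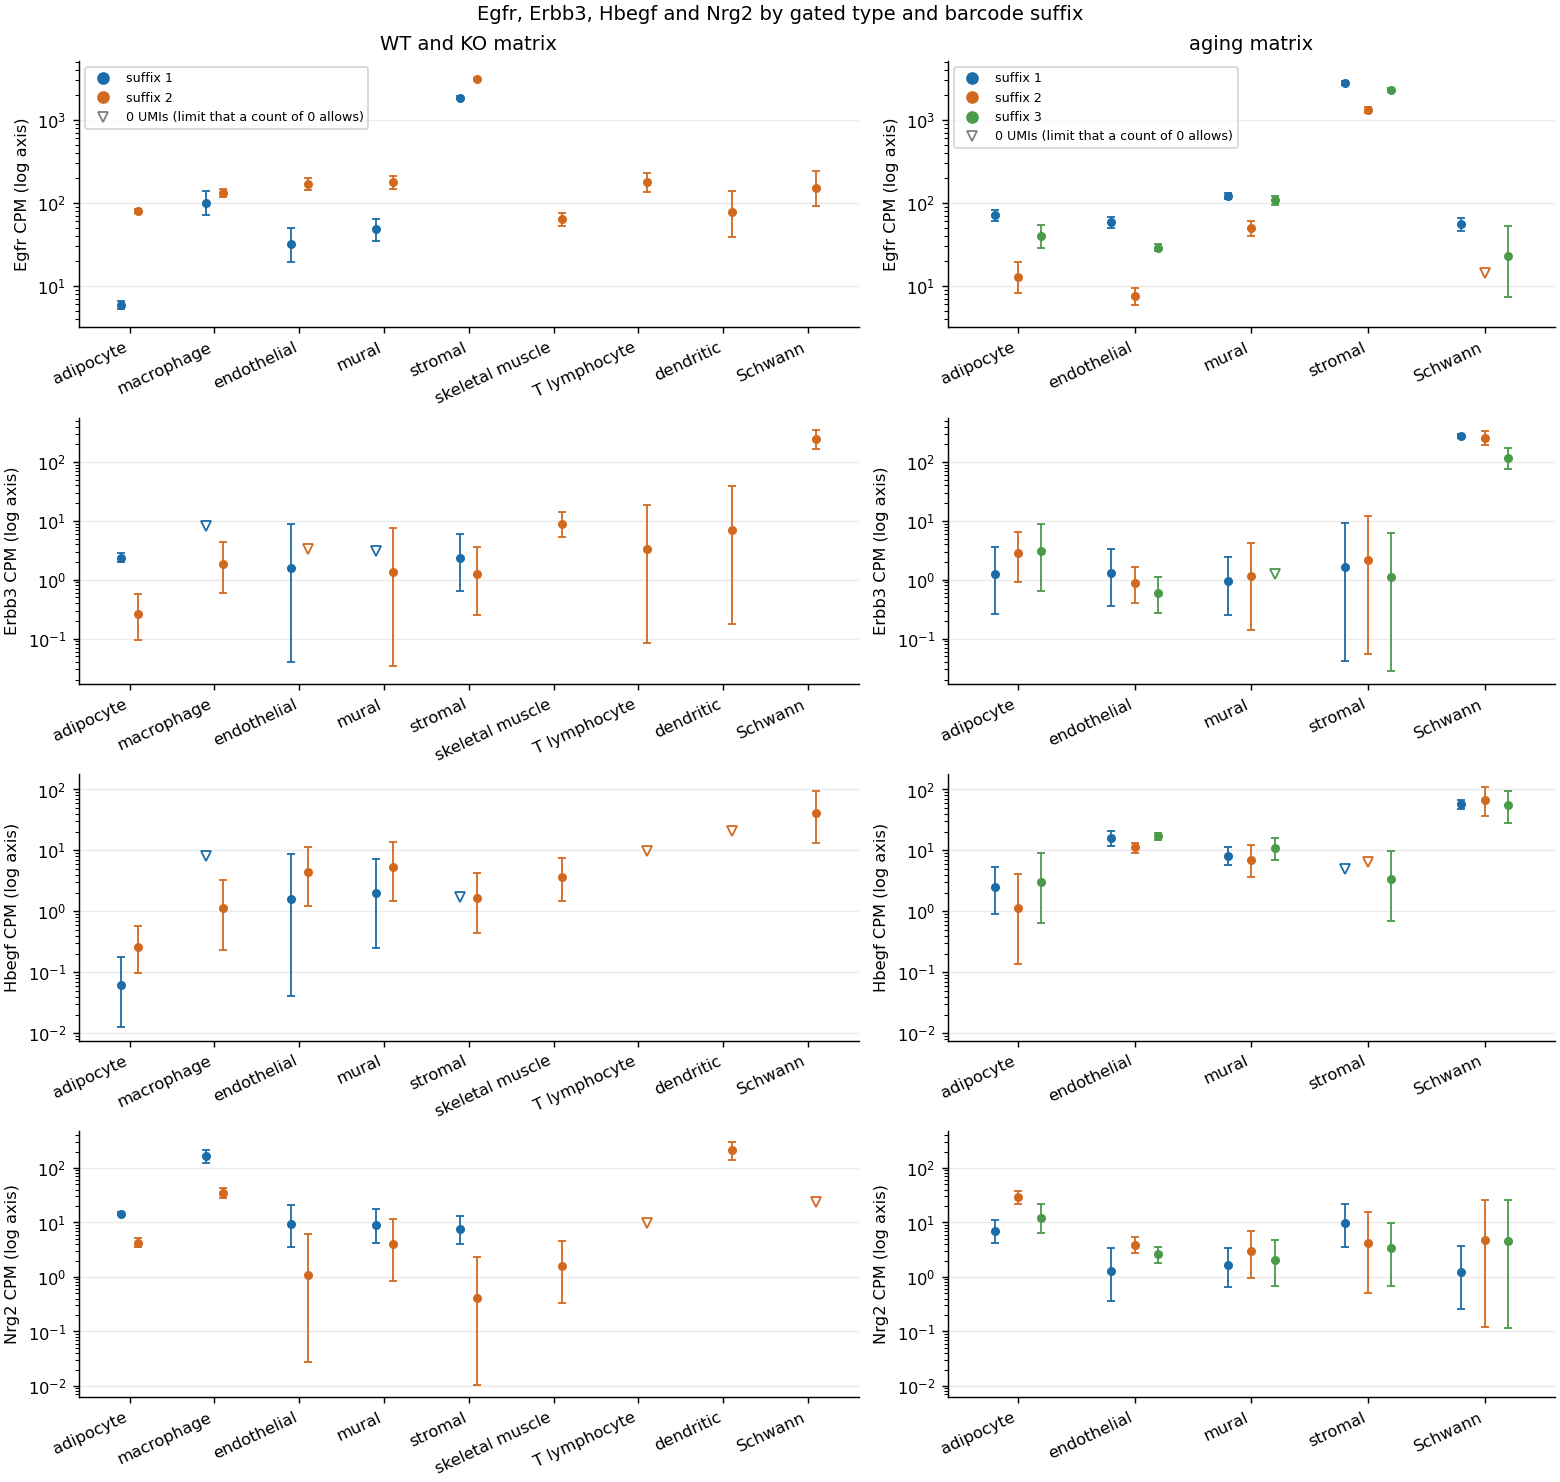
Levels (CPM, log scale) of Egfr, Erbb3, Hbegf and Nrg2 in each cell type and library, one point per suffix with its 95% Poisson interval. Egfr stands out in stromal nuclei of all 5 libraries, and Erbb3 and Hbegf in Schwann nuclei where these are shown. Nrg2 stands out in macrophage and dendritic nuclei of the WT and KO matrix. The aging libraries each held too few nuclei of either type to be shown.

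Counted over the family, 4 of 8 members with at least 50 UMIs in gated nuclei of the WT and KO matrix had at least 2 times the CPM of the next type in their highest type. These were Nrg1, Nrg2, Egfr and Erbb3, and the same rule called 21.0% of 15723 genes. The aging matrix gave 6 of 10, namely Nrg2, Nrg4, Hbegf, Egfr, Erbb3 and Erbb4, against 29.6% of 15199 genes. The Nrg1 call of the first matrix stands on the 1 UMI of its next type. Nrg4, Btc and Erbb4 lay under the limit in the first matrix, at 1.98, 1.96 and 1.75, and Btc and Erbb2 in the second, at 1.58 and 1.76. Set out by role, adipocyte nuclei led in the ligands Nrg4 and Btc and in the receptor Erbb4 in the pooled counts of both matrices. The Btc lead was less than 2-fold and did not hold in every library. Btc was highest in T lymphocyte nuclei in suffix 2 of the first matrix and in Schwann nuclei in suffix 3 of the second. For Erbb4, adipocyte and T lymphocyte nuclei were not parted in suffix 2 of the first matrix, and T lymphocyte nuclei of suffix 1 were too few to be compared. Stromal nuclei led in Egfr, Schwann nuclei in Hbegf and Erbb3, and macrophage or dendritic nuclei in Nrg2.

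The 2 libraries of the WT and KO matrix differed in most members within adipocyte nuclei. Of 7 members with at least 20 UMIs there, 6 were at least 2-fold apart between suffix 2 and suffix 1, where 38.7% of 16109 genes were. The 2 higher in suffix 2, against 13.9% of genes, were Egfr at 13.5 times (11.9 to 15.4) and Nrg1 at 6.83 times (3.76 to 13.1), the latter on 48 UMIs in suffix 2 of which 23 were in 1 nucleus. The 4 lower in suffix 2, against 24.8% of genes, were Erbb3 at 0.110 (0.0397 to 0.248), Btc at 0.129 (0.113 to 0.146), Erbb4 at 0.247 (0.241 to 0.253) and Nrg2 at 0.295 (0.236 to 0.365). Nrg4 was at 1.56 (1.55 to 1.58), above 1 and under the 2-fold limit. The median ratio of all genes was 0.783, and Ucp1, Adipoq and the targeted gene Stx4a stood at 0.737, 0.691 and 0.856. Nrg3, Hbegf and Erbb2 had too few UMIs. The Stx4a ratio does not tell which suffix is the knockout, and the ratios are between 2 libraries with no replicate.

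Other types of the same libraries gave ratios on the same side for several members. Erbb4 was at 0.139 in stromal and 0.175 in endothelial nuclei, and Btc at 0.183 and 0.216. Egfr was at 1.69 in stromal and 5.28 in endothelial nuclei. Nrg4 was the exception, being lower in suffix 2 in stromal and endothelial nuclei, at 0.646 and 0.873, while it was higher there in adipocyte nuclei.

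**Figure D5:**
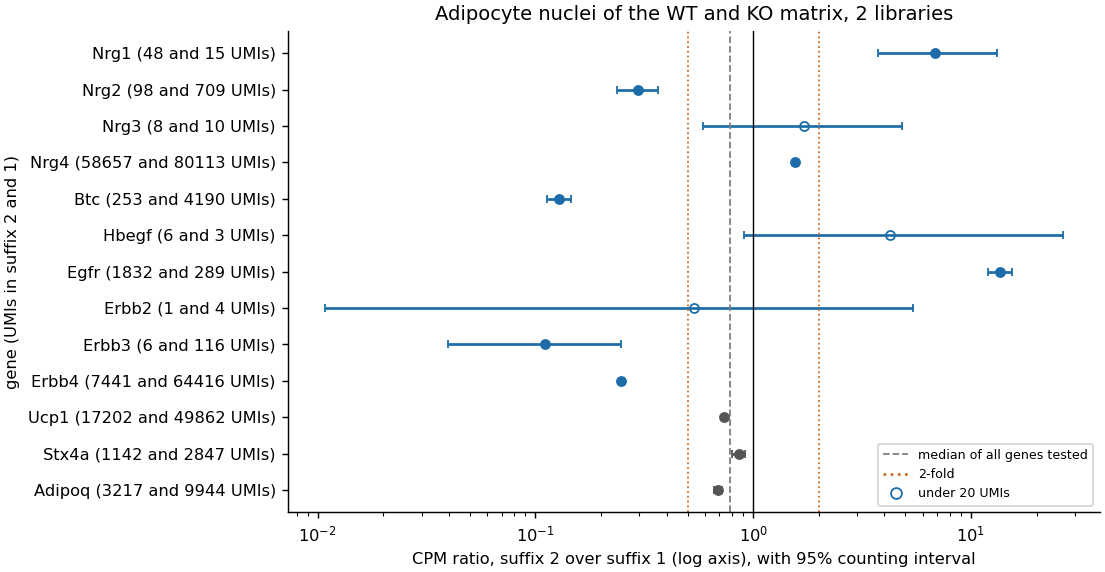
Ratio of CPM in suffix 2 to suffix 1 (log scale) in adipocyte nuclei of the WT and KO matrix, with 95% conditional binomial intervals. All members are shown, hollow where they had under 20 UMIs, beside Ucp1, Adipoq, Stx4a and the median of all genes. Among members with at least 20 UMIs, Egfr and Nrg1 lie above 2, Nrg4 between 1 and 2, and Nrg2, Erbb4, Btc and Erbb3 below 0.5.

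The adipocyte nuclei of that matrix were split by a list of white-like adipocyte genes, which 64 nuclei of suffix 1 and 485 of suffix 2 matched. Ucp1 was lower in them, at 451 and 161 CPM against 1030 and 873 CPM in the remaining adipocyte nuclei. Nrg4 differed less, and not in one direction, at 1792 and 2349 CPM in the white-like nuclei of the 2 libraries against 1641 and 2612 CPM. Erbb4 was at 964 and 291 CPM against 1326 and 333 CPM, and Btc at 47.6 and 8.31 CPM against 86.4 and 11.6 CPM. Egfr was higher in the white-like nuclei of suffix 1, at 130 against 4.24 CPM, and closer in suffix 2, at 95.4 against 77.1 CPM. The difference of the libraries in Erbb4 was therefore present in both kinds of adipocyte nuclei.

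In adipocyte nuclei of the aging matrix, Nrg4 and Erbb4 stayed within 2-fold between libraries. Nrg4 was at 0.931 and 0.713 of the suffix 1 level in suffixes 2 and 3, and Erbb4 at 1.30 and 0.972. Ucp1 varied more, at 1.70 and 0.494. Egfr was at 0.180 and 0.560 and Nrg2 at 4.11 and 1.74, the latter with an interval of 0.759 to 3.87 for suffix 3. The sparse neuregulins were furthest apart. Nrg1 had 1 UMI in suffix 1 against 27 and 13 in suffixes 2 and 3, ratios of 36.3 (5.98 to 1484) and 32.1 (4.82 to 1363), and Nrg3 had 0 against 19 and 19. The median gene stood at 0.886 and 0.918.

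Genes of like pattern were sought over the points given by type and library, 14 in the WT and KO matrix and 15 in the aging matrix, by Pearson correlation of log2(CPM + 1). The points share libraries and depth, and the values are descriptions only. In the aging matrix Nrg4 was most like Acsl1 (0.989), Slc36a2 (0.980) and Eno1 (0.979), and Erbb4 most like Ppara (0.992), Slc27a2 (0.987) and 2610507B11Rik (0.985). Acsl1 and Slc27a2 activate fatty acids, Ppara is a fatty acid sensing nuclear receptor and Slc36a2 an amino acid carrier known as a brown adipocyte surface marker. Erbb3 was most like Luzp2 (0.986), Kcnh8 (0.983) and Prima1 (0.981), and Egfr most like Clmp (0.957), Clint1 (0.954) and Reps2 (0.946). Within the family the closest pair there was Nrg4 and Erbb4, at 0.956.

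The first matrix gave other names. Nrg4 was most like Ppp2r5a (0.973), Gys2 (0.970) and Chpt1 (0.967), Btc most like Lurap1 (0.969) and Egfr most like Tmeff2 (0.979). Erbb4 was most like 4930556N13Rik (0.968). Nrg4 and Erbb4 were at 0.614 there, and the closest pair of members was Btc and Erbb4, at 0.890. The sparse Nrg1 and Nrg3 were in the aging matrix most like Srxn1 (0.872) and Asic2 (0.939), and Nrg1 and Nrg3 were at 0.772 with each other. Hbegf was closest to Sipa1l2 (0.933), Erbb2 to Fam129b (0.922), Nrg2 to Tpte (0.880) and Btc to Polr3d (0.873).

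Of 23 further genes of the pathway, 20 in each matrix had at least 50 UMIs in gated nuclei, and 4 in each were called concentrated by the same rule, which called 21.0% and 29.6% of all genes. Among 5 other ligands Areg, Ereg and Epgn had too few UMIs in both matrices. Egf itself was highest in skeletal muscle nuclei of the WT and KO matrix, at 117 CPM on 237 UMIs against 16.7 CPM in adipocyte nuclei, a ratio with an interval of 6.06 to 8.05. Of these 374 muscle nuclei 364 were in suffix 2, so the value rested mainly on that library. The aging matrix had 0 gated muscle nuclei. Egf was highest there in adipocyte nuclei, at 17.2 CPM, and was not called. The calls of Tgfa in Schwann nuclei of the first matrix and of Rnf41 in macrophage nuclei of the second, both outside the naming rule and named after their values were seen, rested on 3 and 14 UMIs. None of the 5 genes of ligand release (Adam10, Adam17, Bace1, Rhbdf1 and Rhbdf2) was called in either matrix.

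The feedback inhibitors Spry2 and Spry4 were highest in mural nuclei. Spry2 was at 101 CPM in mural and 36.3 CPM in stromal nuclei of the WT and KO matrix, a ratio of 2.79 (2.23 to 3.49), and its ratio in the aging matrix was 1.80 (1.48 to 2.21). Spry4 was at 62.5 against 15.2 CPM there, a ratio of 4.12 (2.99 to 5.72), and in the aging matrix at 100 CPM in mural against 34.6 CPM in endothelial nuclei, a ratio of 2.89 (2.63 to 3.17). Of the 8 genes for inhibition and turnover, 2 were called in the first matrix and 3 in the second. The same rule called 21.0% and 29.6% of all genes. Both Spry genes restrain signalling downstream of receptor tyrosine kinases.

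Gab1, a docking protein of receptor signalling, was highest in Schwann nuclei of the aging matrix at 620 CPM, against 205 CPM in macrophage nuclei, a ratio of 3.03 (2.20 to 4.27). In the first matrix the Schwann level was 390 CPM and the ratio 2.00 (1.55 to 2.54), just short of the limit. Cbl, a ubiquitin ligase that removes Egfr from the surface, was highest in macrophage nuclei of the aging matrix at 300 CPM on 57 UMIs, against 121 CPM in mural nuclei, a ratio of 2.48 (1.86 to 3.23). Gab1 was the 1 call among the 5 adaptors and signal carriers in the aging matrix, where 29.6% of all genes were called. None of the 5 was called in the first matrix.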

How the data were processed

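The authors deposited raw UMI counts per gene and nucleus, made with Cell Ranger 6.1.2 on mm10. The annotation release was not given in the sources used here. Sums and intervals were computed with scipy 1.17.1 under Python 3.11.15. Of the WT and KO matrix, the filter in the methods (200 to 2000 UMIs, 100 to 3000 genes) left 2763 nuclei, so only its lower limits were applied. Nuclei were gated by 11 marker lists, requiring a log-likelihood ratio of 6, a margin of 5 over the next list and 2 detected markers. Types needed 50 nuclei. No doublet caller was run, and leaving out nuclei with at least 3 UMIs of another list was an alternative. UMIs were summed per type. Shares of nuclei were also computed at 1000 UMIs, leaving out shallower nuclei. The 3 genes of highest correlation were named per member, and pathway genes with at least 50 UMIs in a type that led 2-fold. Procedures were tested on simulated data. Members, lists and alternatives were chosen with earlier results of these data known.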

Additional observations from a re-analysis of the deposited data

Results flagged for a closer look

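Nuclei that no marker list claimed, 6757 in the WT and KO matrix and 5169 in the aging matrix, entered no comparison, and all 10 members gave a signal in them. In the WT and KO matrix their levels were 1570 CPM for Nrg4, 1153 CPM for Erbb4, 130 CPM for Egfr and 60.0 CPM for Btc. The others were lower, with Nrg2 at 10.7, Erbb3 at 1.84, Nrg1 at 1.52, Erbb2 at 0.387, Nrg3 at 0.258 and Hbegf at 0.258 CPM. In the aging matrix the ungated nuclei gave 179 CPM for Egfr, 172 CPM for Erbb4, 159 CPM for Nrg4, 12.8 CPM for Nrg1 and 10.0 CPM for Nrg3. Erbb2 was at 8.80, Btc at 7.29, Hbegf at 6.33, Nrg2 at 5.91 and Erbb3 at 2.06 CPM. The pooled Erbb4 level of ungated nuclei of the first matrix was above that of its adipocyte nuclei, 1003 CPM. It was below the 1321 CPM of the adipocyte nuclei of suffix 1. The pools differ in library mix. Suffix 1 held 23276119 of 30977193 UMIs of ungated nuclei and 48768535 of 71610696 UMIs of adipocyte nuclei. By library, the ungated nuclei of that matrix held Egfr at 6.36 CPM in suffix 1 and at 503 CPM in suffix 2.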

How the results depend on the processing

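Counts of concentrated members were 4 in the WT and KO matrix and 6 in the aging matrix. In the first matrix the count was 2 in the stated UMI and gene range (1160 of 5782 genes). Suffix 1 alone also gave 2 (17.2% of genes). The count was 7 with assignment by the whole transcriptome (24.4% of genes), without the deepest 8% of nuclei (21.8%) or with equal weight per nucleus (24.7%). It ran from 4 to 6 under the other alternatives, where 11.4% to 34.1% of genes were called. In the aging matrix it ran from 5 to 8 under all, with 16.3% to 31.2% of genes called. A 3-fold limit left both counts as they were, but called 1794 in place of 3294 genes in the first matrix and 2482 in place of 4499 in the second, where suffix 2 alone called 2689. Members that kept their highest type in the first matrix were 4 in the stated range (6 types left), 5 without mixed nuclei (5 types left) and 4 in suffix 1 alone (5 types left), fewer types being left by construction. The Btc ratio of adipocyte to T lymphocyte turned to 0.458 in the stated range and to 0.374 in suffix 2 alone. The cause was not tested. Nrg4 stayed above the next type of the main order in every alternative, from 1.55 to 3.14 in the first matrix, and Erbb4 from 1.22 to 3.65 where T lymphocyte nuclei could be compared. The 6 members past 2-fold between suffixes remained 6 under all alternatives run, and the stated range could not be run because it left 0 nuclei of suffix 1. For that comparison the share over all genes was computed in the main setting alone, at 38.7% of 16109. Of 117 alternative values of the ratio of a member's 2 highest types, 108 kept their direction and 9 did not. Beside the 2 of Btc, these were 6 of Nrg3, from 0 to 0.922, and 1 of Nrg1, at 0.420, whose main intervals included 1. No paired analysis was possible because each condition has 1 library and no test was made.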
